A study of Homo sapiens with 30 samples.

Results

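The histone genes described here were 71 of the 60656 genes in the deposited expression tables. They were chosen by name, as protein-coding genes whose symbol is H1-, H2AC, H2BC, H3C or H4C followed by a number, plus H2AX. By protein class they comprised 10 H1, 17 H2A (H2AX among them), 17 H2B, 13 H3 and 14 H4 genes. Of these, 55 lie on chromosome 6, 11 on chromosome 1, 2 on chromosome 3 and 3 on other chromosomes. A further 6 pseudogenes whose symbols follow the same pattern were left out.

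RNA was sequenced from human diffuse large B cell lymphoma cell lines in 30 libraries, with 3 libraries in each of 10 groups, which the labels call biological replicates. OCI-LY3, HT, OCI-LY19 and SUDHL5 were each harvested after 24 h in 0.2 µM doxorubicin, an anthracycline drug that traps topoisomerase II on broken DNA, and at 0 h without the drug. OCI-LY19R cells, a doxorubicin-resistant derivative, had been kept in 20 nM doxorubicin and taken off it 1 week before use, and OCI-LY19S cells, their drug-sensitive parent, grew in medium without the drug. No other allele or agent is given for any group. Titles of the treated libraries of the 4 lines name both the drug and a control, and these libraries were grouped by their treatment. There was no undrugged library at 24 h, so drug and hours in culture cannot be told apart. OCI-LY19R is a single derived line, so resistance and any other change acquired on the way to it cannot be told apart either.

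Histones H2A, H2B, H3 and H4 form the protein core around which DNA is wrapped, and H1 binds the DNA between cores. Most of their genes are replication-dependent: they sit in clusters, are transcribed in S phase under the coactivator NPAT, and give mRNAs that end in a stem-loop held by the protein SLBP and carry no poly(A) tail. Some of the same genes are also read through to a polyadenylation signal further on, a form known from differentiated and non-dividing cells. H1-10 encodes a linker histone made outside S phase from polyadenylated mRNA, and H2AX encodes the H2A variant that is phosphorylated around DNA breaks. The libraries were made from RNA selected for poly(A) tails, so the values below are levels of histone transcripts in that selected RNA and not the cells' whole supply of histone mRNA. In bulk RNA, fewer cells in a given phase and less transcript per cell cannot be told apart.

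The stem-loop is the end that most histone mRNAs use, and the 5 genes below are shown because their annotated models run past it. The letters searched on the transcript strand began with GG, any pair of bases and CTTTT, and went on with any base, AG, any pair and CC. They are marked in capitals, with 5 bases on either side, in transcripts of GENCODE release 29 (GRCh38). The letters were found in 28 of the 69 histone genes with transcripts there, which is 40.6%, against 52 of 19684 protein-coding genes, or 0.26%. Many of the other models stop at the coding end, so that the absence of these letters says nothing about those genes. In 17 of the 28 genes the letters AATAAA, a polyadenylation signal, followed further along the same model. Of the 5 genes shown, this held for H2AC6 and H2BC21 but not for H2BC8, H4C9 or H2AX.
H2AC6: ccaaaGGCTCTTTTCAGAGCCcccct
H2BC8: tcaaaGGCTCTTTTCAGAGCCactca
H2BC21: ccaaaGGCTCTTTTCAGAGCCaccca
H4C9: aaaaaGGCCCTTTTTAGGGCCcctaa
H2AX: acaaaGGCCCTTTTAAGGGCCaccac
The models continued beyond the stem-loop by 1128 bases in H2AC6, 1059 in H2BC8, 1729 in H2BC21, 212 in H4C9 and 1044 in H2AX. H2BC5 and H2AC8 carried the same letters but their models went on by 39 and 51 bases.

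Reads assigned to genes, recovered from the deposited values, totalled between 16067405 and 38337869 per library in the 4 lines. The OCI-LY19R libraries held 33439107, 26419983 and 23782084 reads, and the OCI-LY19S libraries 18354091, 20558372 and 121769119. Levels are given in FPKM, reads per kilobase of gene model, scaled to a fixed total of assigned reads. The B cell markers MS4A1, CD79A, CD79B, PAX5 and CD22 were all detected, and their summed level lay between 178 and 1444 FPKM. Summed levels of 8 T and NK cell markers lay between 60.4 and 83.8 FPKM in treated OCI-LY19 cells, against 24.8 to 28.3 at 0 h, and between 109 and 117 FPKM in treated SUDHL5 cells, against 113.7 to 119.7 at 0 h. In treated HT cells they lay between 11.9 and 13.9 FPKM, against 3.47 to 5.36 at 0 h, and in treated OCI-LY3 cells between 5.59 and 8.91 FPKM, against 5.36 to 6.05 at 0 h. Those of 6 myeloid markers lay between 20.0 and 33.2 FPKM in treated OCI-LY19 cells, against 5.98 to 9.83 at 0 h, and between 5.30 and 6.23 FPKM in treated SUDHL5 cells, against 0.299 to 0.466 at 0 h; they stayed below 1 FPKM in OCI-LY3 and HT. Those of 7 stromal, epithelial or endothelial markers lay between 3.05 and 5.63 FPKM in treated OCI-LY19 cells, against 1.37 to 3.63 at 0 h, and between 4.61 and 5.25 FPKM in treated SUDHL5 cells, against 2.14 to 2.29 at 0 h. No marker of these lists was at 0 in every library, and their part in the histone results was not tested. The 3 SUDHL5 replicates differed little, but by more than sampling noise, and nothing further says that the replicates of any group came from separate cultures, so p-values may measure a spread that is in part technical.

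Of the 71 histone genes, H2AC1 and H2BC1, known as testis histones, were at 0 in every library. In the 4 lines 49 genes reached the level required for testing, 1 FPKM in at least 3 libraries, and the 22 others stayed at or below 1.85 FPKM. Between OCI-LY19R and OCI-LY19S only 9 genes reached it. H2AX and H1-10 had the highest mean FPKM of the set over all libraries. In treated OCI-LY19 cells, though, H2BC12 and H4C3 had higher means than both, and H2AC6 had a higher mean than H2AX. H2BC12 also had a higher mean than H2AX in treated SUDHL5 cells and than H1-10 in OCI-LY3 cells at 0 h. A gene was called changed at a Benjamini-Hochberg adjusted p below 0.05 in limma, with changes given as log2 differences of FPKM + 1.

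In OCI-LY19 cells, 24 h of doxorubicin was accompanied by higher levels of 25 of the 49 tested histone genes, 51%, against 34.5% of all 17645 genes tested. A single gene fell, H2AX, against 23.7% of all genes. The genes that rose were H1-2 among H1, H2AC6, H2AC8, H2AC11, H2AC13 and H2AC15 among H2A, and H2BC5, H2BC6, H2BC7, H2BC8, H2BC11, H2BC12, H2BC15, H2BC17, H2BC18 and H2BC21 among H2B. In the other classes they were H3C6, H3C10, H3C12 and H3C13, and H4C3, H4C5, H4C8, H4C9 and H4C12. Per class this was 1 of 5 tested H1 genes, 5 of 12 H2A, 10 of 14 H2B, 4 of 8 H3 and 5 of 10 H4. The median log2 change over the tested histone genes was 1.19, against 0.08 over all tested genes. Without the treated OCI-LY19 libraries, 9 histone genes, H2BC6 among them, would not have met the level required for testing. Among the 40 others, 19 rose and 1 fell. The count of higher genes was 43 without treated replicate 3, the library with the lowest level of the untailed RNA RN7SL1 in its group, and 10 when only genes at 5 FPKM or more in 3 libraries were tested.

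Among the H2A genes, H2AC6 (chromosome 6, 26124172 to 26124690, plus strand; coordinates are hg38) had 24.6, 15.4 and 18.7 FPKM in treated OCI-LY19 libraries, against 2.46, 1.80 and 1.20 FPKM at 0 h. Every treated library lay far above every library at 0 h, and the log2 change was 2.86 ± 0.21 (SE, adjusted p = 7.19e-10). H2AC8 had 15.7, 11.8 and 10.5 FPKM in treated libraries, against 4.57, 0 and 0.377 FPKM at 0 h. The libraries at 0 h ranged widely but stayed below all treated ones, and the gene rose by 2.77 ± 0.65 on the log2 scale (adjusted p = 0.00111).

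Among the H2B genes, H2BC8 (chromosome 6, 26216200 to 26216688, minus strand) had 14.2, 9.72 and 11.7 FPKM in treated OCI-LY19 libraries, against 1.22, 0.814 and 0.725 FPKM at 0 h. The groups stood apart by a wide margin, with a log2 change of 2.74 ± 0.16 (adjusted p = 5.1e-11). H2BC12 (chromosome 6, 27138293 to 27146858, minus strand), the most abundant H2B gene here, had 66.9, 50.7 and 36.4 FPKM in treated libraries, against 15.9, 10.7 and 8.83 FPKM at 0 h, and rose by 2.03 ± 0.38 (adjusted p = 0.000138). H2BC5 had 21.8, 14.1 and 14.8 FPKM in treated libraries, against 4.75, 1.75 and 1.80 FPKM at 0 h, and rose by 2.31 ± 0.34 (adjusted p = 9.91e-06). In both genes the lowest treated library exceeded the highest library at 0 h. H2BC21, on chromosome 1, had 10.7, 6.74 and 7.11 FPKM in treated libraries, against 1.46, 0.960 and 0.752 FPKM at 0 h, and rose by 2.15 ± 0.19 (adjusted p = 1.62e-08), again with no overlap.

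The H4 gene H4C3 (chromosome 6, 26103933 to 26104337, plus strand) had 27.3, 23.3 and 26.2 FPKM in treated OCI-LY19 libraries, against 3.78, 7.42 and 0.663 FPKM at 0 h. The libraries at 0 h differed among themselves by a wide margin and still lay below the treated ones, and the log2 change was 2.71 ± 0.54 (adjusted p = 0.000254). H4C9 (chromosome 6, 27139282 to 27139678, plus strand), chosen for naming after its values were seen, had 10.8, 8.09 and 7.31 FPKM in treated libraries, against 2.19, 1.63 and 1.48 FPKM at 0 h, and rose by 1.81 ± 0.15 (adjusted p = 4.66e-09). The linker histone gene H1-2 had 18.1, 10.6 and 6.69 FPKM in treated libraries, against 6.83, 1.71 and 1.52 FPKM at 0 h, so that the lowest treated library lay just under the highest at 0 h. Its change of 1.66 ± 0.54 (adjusted p = 0.0122) no longer passed without 0 h replicate 2 (0.0542) or 3 (0.0622), without treated replicate 1 (0.0695), or with the library-name ending as a covariate (0.0581).

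The linker gene H1-10 (chromosome 3, 129314771 to 129316286, minus strand) and H2AX (chromosome 11, 119093874 to 119095465, minus strand) went the other way in the treated OCI-LY19 libraries. H2AX had 12.3, 29.5 and 12.9 FPKM in treated libraries, against 30.6, 95.9 and 46.4 FPKM at 0 h, and fell by 1.56 ± 0.40 on the log2 scale (SE, adjusted p = 0.00245). Every treated library was lower than every library at 0 h, though the highest treated level was close to the lowest at 0 h. H1-10 had 20.3, 30.4 and 20.0 FPKM in treated libraries, against 22.8, 74.0 and 35.2 FPKM at 0 h; the groups overlapped and the change of -0.74 ± 0.38 was not called (adjusted p = 0.103). It did pass without 0 h replicate 1 (0.019) and in voom on the recovered reads (0.0314).

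**Figure D1:**
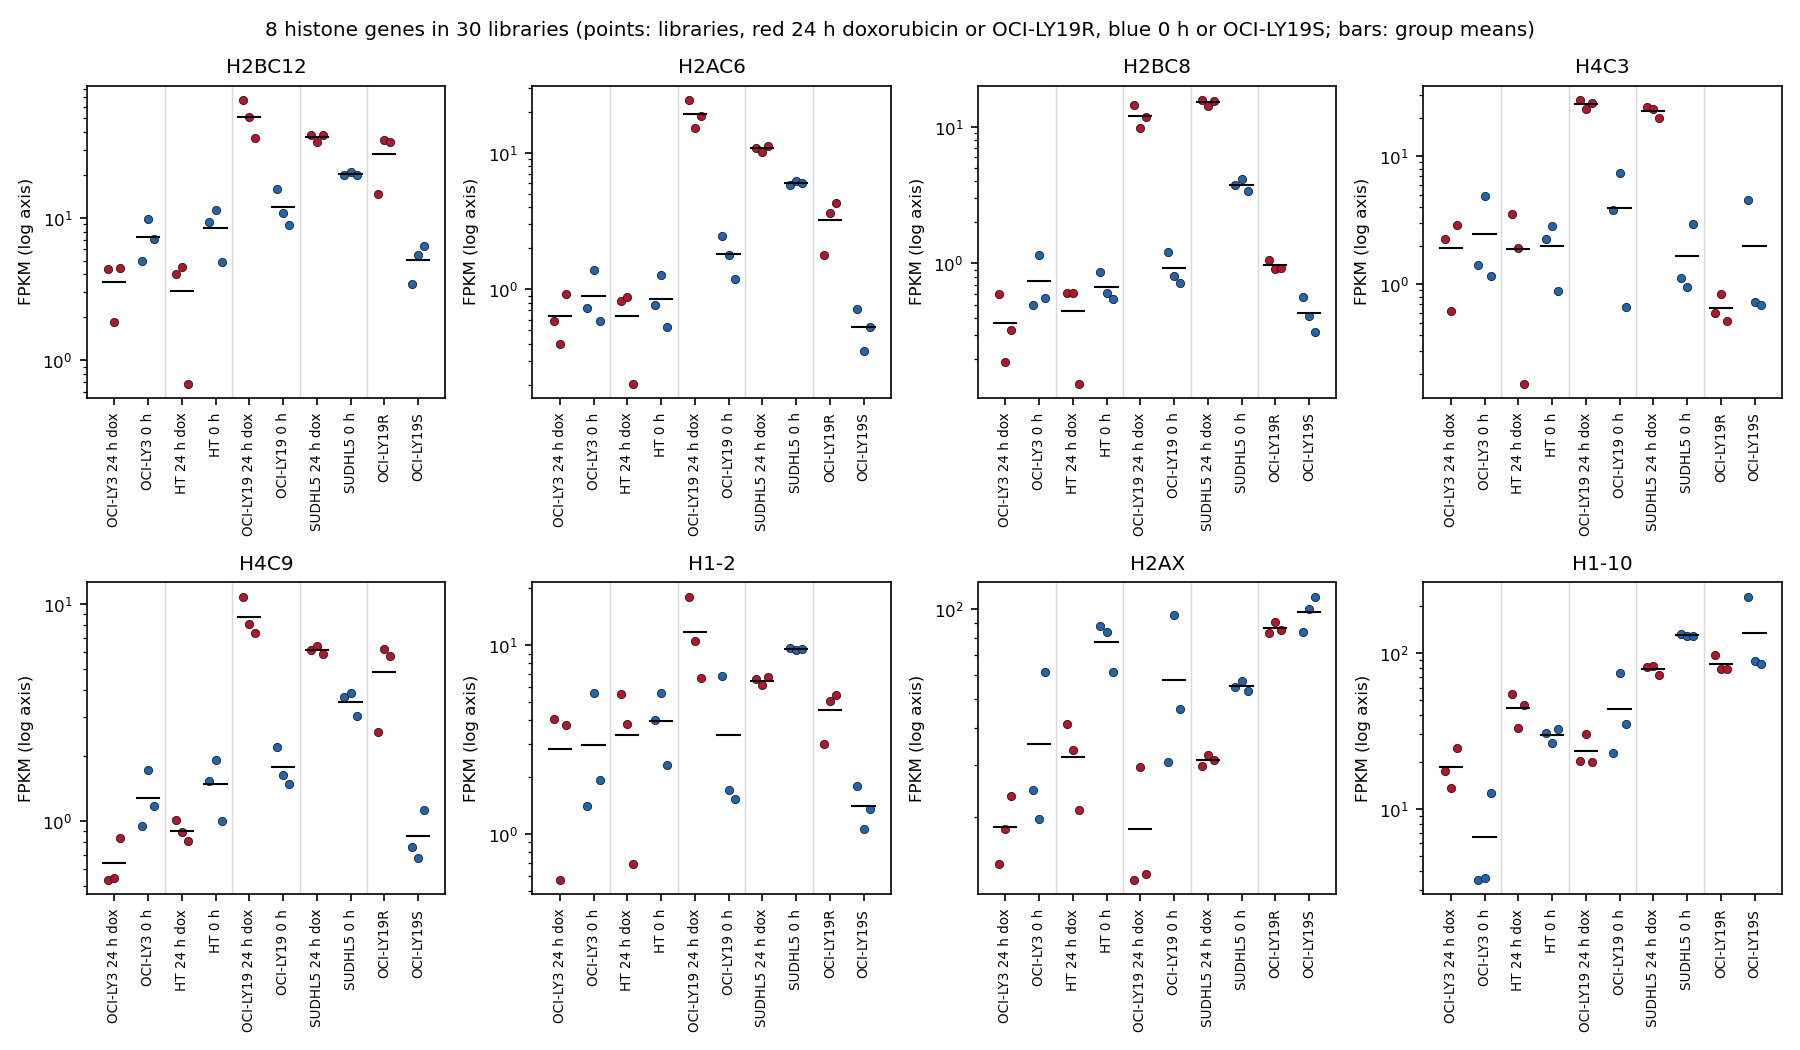
FPKM, on log axes of different ranges, of H2BC12, H2AC6, H2BC8, H4C3, H4C9, H1-2, H2AX and H1-10 in the 30 libraries; points are libraries, red for 24 h doxorubicin or OCI-LY19R and blue for 0 h or OCI-LY19S, and bars are means of 3. H2AC6, H2BC8 and H4C3 stand highest in treated OCI-LY19 and SUDHL5 libraries, while H2AX is lower in treated than in 0 h libraries of HT, OCI-LY19 and SUDHL5 without overlap.

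In SUDHL5 cells after 24 h of doxorubicin, 11 of the 49 tested histone genes were higher, 22.4%, against 18.6% of all genes tested, and none was lower, against 19.9% of all genes. The unadjusted p was below 0.05 for 15. The 11 genes were H2AC6, H2BC4, H2BC5, H2BC6, H2BC8, H2BC18, H2BC21, H3C12, H4C3, H4C8 and H4C9, which made 6 of 14 tested H2B genes, 3 of 10 H4, 1 of 12 H2A, 1 of 8 H3 and 0 of 5 H1. Of these, 10 had also risen in OCI-LY19, 90.9% of the SUDHL5 genes and 40.0% of the OCI-LY19 genes. Among the 10, H2BC6 and H2BC18 would not have reached the level required for testing without the treated OCI-LY19 libraries, so that they had to be high in some of these. Of all genes tested, 1961 were higher in both lines, 59.7% of those higher in SUDHL5 and 32.2% of those higher in OCI-LY19, and the difference from the histone genes was not tested. The median log2 change of the tested histone genes was 0.34, against 0.00 over all tested genes. Without the treated SUDHL5 libraries, 1 of the 11 would not have met the level required for testing. That gene needed the treated OCI-LY19 libraries as well.

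H4C3 had 24.1, 23.4 and 19.8 FPKM in treated SUDHL5 libraries, against 1.13, 0.952 and 2.94 FPKM at 0 h, and rose by 3.20 ± 0.54 on the log2 scale (SE, adjusted p = 9.3e-05). H2BC8 had 15.6, 14.1 and 15.4 FPKM in treated libraries, against 3.74, 4.15 and 3.37 FPKM at 0 h, and rose by 1.76 ± 0.16 (adjusted p = 6.88e-08). Both genes separated the groups completely, with little difference among the 3 treated libraries. H2BC21 had 6.37, 5.91 and 6.61 FPKM in treated libraries, against 2.10, 1.99 and 2.09 FPKM at 0 h, and rose by 1.25 ± 0.19 (adjusted p = 3.49e-05). H4C9 had 6.14, 6.42 and 5.89 FPKM in treated libraries, against 3.73, 3.87 and 3.04 FPKM at 0 h, and rose by 0.66 ± 0.15 (adjusted p = 0.00151). Each of these H2B and H4 genes encodes a core histone, and neither showed overlap.

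The remaining named SUDHL5 calls depended on the scale, and with a pseudocount of 0.1 in place of 1, or on the TPM scale, the count of higher histone genes was 7. H2AC6 had 10.9, 10.3 and 11.3 FPKM in treated libraries, against 5.85, 6.22 and 6.05 FPKM at 0 h, and rose by 0.75 ± 0.21 (adjusted p = 0.00674), which became 0.114 with that pseudocount and 0.0825 in TPM, where each library sums to the same total. H2BC5 had 14.4, 13.3 and 13.1 FPKM in treated libraries, against 5.15, 7.21 and 4.94 FPKM at 0 h, and rose by 1.12 ± 0.34 (adjusted p = 0.0136); this p was 0.0514 with the smaller pseudocount, 0.0501 in TPM and 0.0506 without 0 h replicate 3. The groups of both genes did not overlap. H2BC4, which was not called in OCI-LY19, had 8.21, 7.80 and 7.66 FPKM in treated libraries, against 2.60, 1.34 and 1.87 FPKM at 0 h, and rose by 1.62 ± 0.52 (adjusted p = 0.0186; 0.145 with the smaller pseudocount, 0.0918 in TPM and 0.067 without 0 h replicate 2).

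The members that the call left out in SUDHL5 were not all flat. H2BC12 had 37.9, 33.9 and 38.0 FPKM in treated libraries, against 20.0, 20.9 and 19.8 FPKM at 0 h, with no overlap; its change of 0.82 ± 0.38 had an adjusted p of 0.0992 in the fit that shares 1 spread among all 4 lines. H2AX had 29.7, 32.3 and 31.2 FPKM in treated libraries, against 54.6, 57.2 and 53.2 FPKM at 0 h, also without overlap, and a change of -0.81 ± 0.40 (adjusted p = 0.127). H1-10 had 81.5, 83.0 and 72.4 FPKM in treated libraries, against 132, 129 and 129 FPKM at 0 h, and a change of -0.71 ± 0.38 (adjusted p = 0.151). Fitted on the 6 SUDHL5 libraries alone, H2AX and H1-10 passed the threshold, with adjusted p of 7.26e-06 and 3.42e-05. H2AC8 had 5.34, 6.09 and 4.18 FPKM in treated libraries, against 1.34, 2.35 and 2.74 FPKM at 0 h, and was not called (adjusted p = 0.256). H1-2, which rose in OCI-LY19, had 6.62, 6.12 and 6.74 FPKM in treated SUDHL5 libraries, against 9.67, 9.44 and 9.59 FPKM at 0 h, and was not called (-0.50 ± 0.54, adjusted p = 0.527).

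In OCI-LY3 cells 2 of the 49 tested histone genes rose after doxorubicin, 4.08%, against 40.4% of all genes tested, and 1 fell, 2.04%, against 14.3%. The unadjusted p was below 0.05 for 4 histone genes. H1-10 had 17.4, 13.6 and 24.6 FPKM in treated libraries, against 3.48, 3.57 and 12.5 FPKM at 0 h, each treated library above each at 0 h, and rose by 1.54 ± 0.38 on the log2 scale (SE, adjusted p = 0.00165). H2BC6 (chromosome 6, 26183761 to 26184230, plus strand), named after its values were seen, had 0.479, 0.515 and 0.531 FPKM in treated libraries, against 0.296, 0.176 and 0.242 FPKM at 0 h. Its rise of 0.29 ± 0.10 (adjusted p = 0.0157) is a change at a very low level, and did not pass after median-of-ratios scaling (0.0697), after quantile normalization (0.424) or without 0 h replicate 2 (0.0607). H4C9 had 0.535, 0.546 and 0.836 FPKM in treated libraries, against 0.945, 1.73 and 1.18 FPKM at 0 h, and fell by 0.47 ± 0.15 (adjusted p = 0.0116; 0.0802 without 0 h replicate 2). The groups of these 3 genes did not overlap.

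H2AC6 and H2BC8, which rose in OCI-LY19, were low in OCI-LY3. H2AC6 had 0.590, 0.399 and 0.923 FPKM in treated OCI-LY3 libraries, against 0.733, 1.39 and 0.586 FPKM at 0 h, with overlap. H2BC8 had 0.594, 0.190 and 0.325 FPKM in treated libraries, against 0.498, 1.16 and 0.561 FPKM at 0 h. H2BC12 had 4.34, 1.85 and 4.45 FPKM in treated libraries, against 4.94, 9.87 and 7.03 FPKM at 0 h, the treated libraries all lower, and a change of -0.88 ± 0.38 that was not called (adjusted p = 0.0582). H2AX had 13.9, 18.3 and 23.5 FPKM in treated libraries, against 24.8, 19.7 and 61.5 FPKM at 0 h, where replicate 3 stood well above the others. Its change of -0.75 ± 0.40 was not called (adjusted p = 0.129), though it passed without 0 h replicate 2 (0.0455), in voom on the recovered reads (0.0378) and after median-of-ratios scaling (0.0413). Over all tested histone genes the median log2 change in OCI-LY3 was 0.17, against 0.16 over all tested genes.

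In HT cells 1 of the 49 tested histone genes rose, 2.04%, against 22.9% of all genes tested, and 2 fell, 4.08%, against 9.41%. The unadjusted p was below 0.05 for 4 histone genes. H2AX had 41.0, 33.5 and 21.2 FPKM in treated HT libraries, against 88.1, 83.7 and 61.6 FPKM at 0 h, without overlap, and fell by 1.29 ± 0.40 on the log2 scale (SE, adjusted p = 0.0187). H2BC12 had 4.02, 4.48 and 0.685 FPKM in treated libraries, against 9.27, 11.3 and 4.86 FPKM at 0 h, and fell by 1.33 ± 0.38 (adjusted p = 0.0113). In both genes treated replicate 3 was the lowest library, and neither call passed without it (0.0981 for H2AX and 0.0907 for H2BC12), nor without 0 h replicate 2 (0.0554 and 0.0588); that of H2AX was also lost without 0 h replicate 1 (0.0654) and that of H2BC12 on the HT libraries alone (0.0781). H2BC6 had 0.770, 0.646 and 0.590 FPKM in treated libraries, against 0.284, 0.462 and 0.340 FPKM at 0 h, and rose by 0.29 ± 0.10 (adjusted p = 0.0236). The H2BC6 call was lost without a filter on low genes, after median-of-ratios scaling or quantile normalization, and in voom on the recovered reads. It was also lost when any 1 of 3 libraries was left out. H1-10 had 54.6, 33.1 and 46.1 FPKM in treated libraries, against 30.6, 26.4 and 32.3 FPKM at 0 h. H2AC6 had 0.821, 0.876 and 0.203 FPKM in treated libraries, against 0.771, 1.27 and 0.526 FPKM at 0 h. Neither H1-10 nor H2AC6 was called (adjusted p = 0.305 and 0.546). The median log2 change over the tested histone genes in HT was -0.13, against 0.06 over all tested genes.

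**Figure D2:**
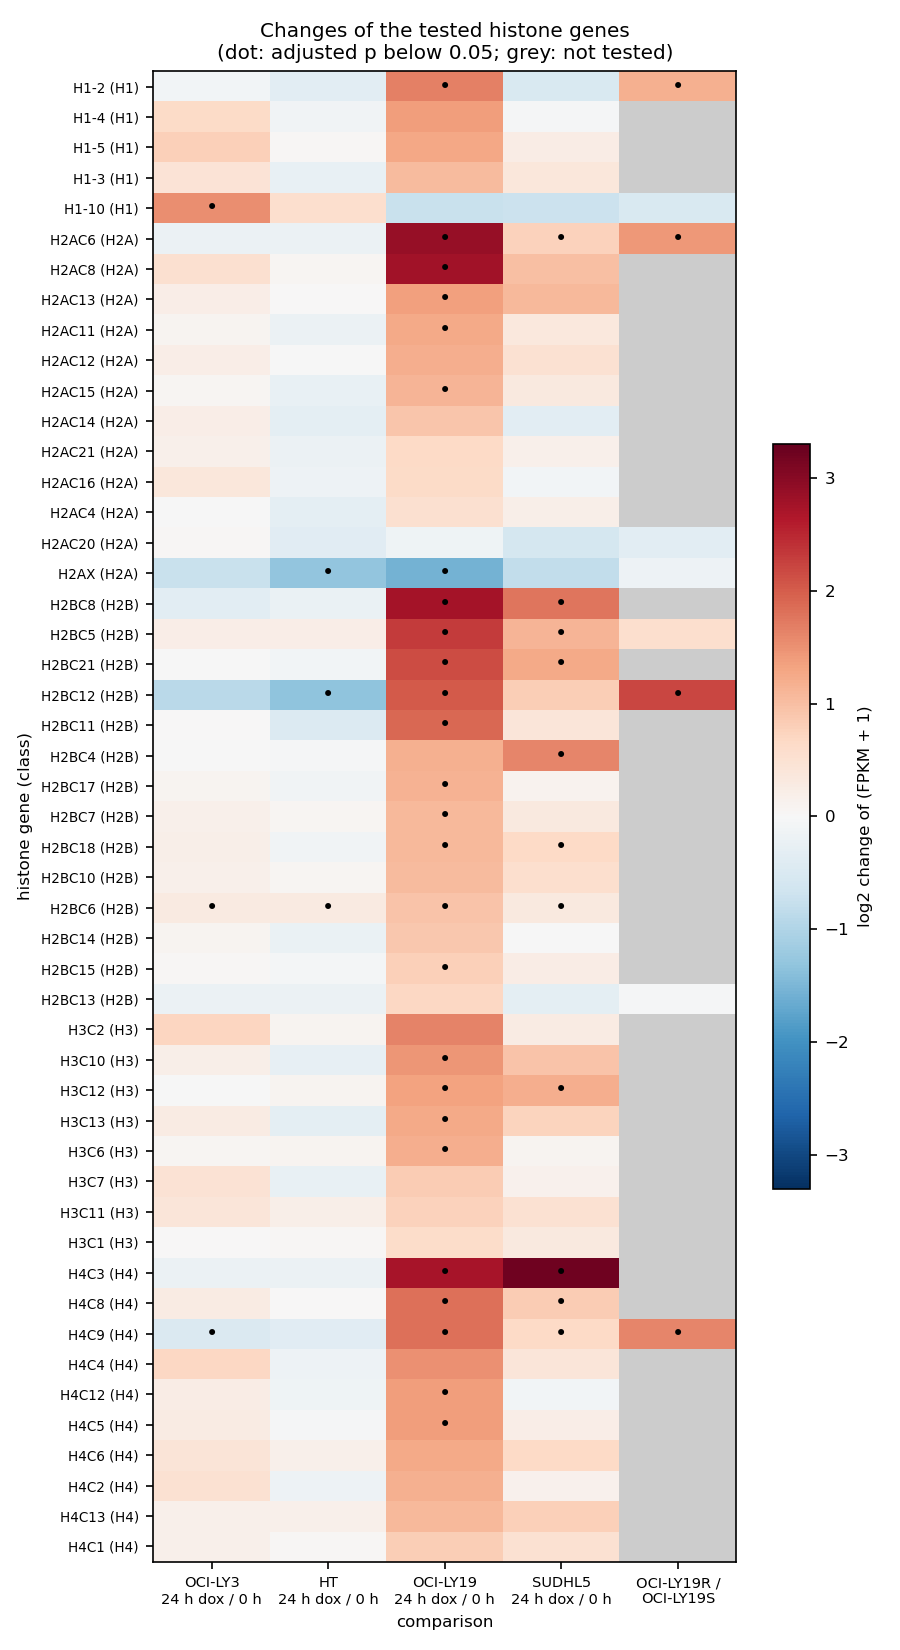
Log2 change of FPKM + 1 (colour) for each tested histone gene (vertical axis, by class) in the 5 comparisons (horizontal axis), with a dot where the adjusted p is below 0.05 and grey where the gene was not tested. The OCI-LY19 column holds 26 dots, the SUDHL5 column 11, the OCI-LY3 and HT columns 3 each and the OCI-LY19R column 4.

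The response to doxorubicin differed among the 4 lines for 19 of the 49 histone genes, 38.8%, in limma's F test of the interaction, against 72.2% of all genes tested. Of the 19, 5 are among the 9 genes tested only through the treated OCI-LY19 libraries. The adjusted p of that test was 1.8e-09 for H2BC8, 5.2e-08 for H4C9, 6.72e-08 for H2AC6, 1.32e-06 for H2BC21 and 5.66e-05 for H2BC12. It did not pass for H2AX (0.476), H1-2 (0.0512), H2AC8 (0.0566) or H2BC4 (0.109). Set directly against SUDHL5, the response of OCI-LY19 was larger for 13 of the 49 tested histone genes, near the 26.5% of all genes called that way. It was smaller for none, against 17.4% of all genes. Only 9 of the 13 are among the 40 genes that reached the level required for testing without the treated OCI-LY19 libraries. For H2AC6 the difference in log2 change between OCI-LY19 and SUDHL5 was 2.11 (adjusted p = 1.07e-05), for H4C9 1.15 (0.000211) and for H2BC8 0.98 (0.00195). For H4C3, which rose in both lines, it was -0.49 (0.642), and for H2BC12 1.20 (0.0789).

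Between OCI-LY3 and HT no histone gene had a called difference in response, against 19.9% of all genes called larger in OCI-LY3 and 9.5% smaller. H1-10 was called in OCI-LY3 alone, and its response there exceeded that in OCI-LY19 by 2.28 (adjusted p = 0.00147) and that in SUDHL5 by 2.25 (0.00156), while the difference from HT did not pass (0.174). The response of H2BC12 in HT was below that in OCI-LY19 by 3.36 on the log2 scale (-3.36, adjusted p = 4.62e-05), and that in OCI-LY3 by 2.91 (-2.91, 0.00018).

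At 0 h the lines themselves differed for 16 of the 49 histone genes, 32.7%, against 90.5% of all genes tested, in the F test across the 4 groups. The libraries of SUDHL5 at 0 h had the highest H1-10 level, at 132, 129 and 129 FPKM, with OCI-LY3 lowest, at 3.48, 3.57 and 12.5 FPKM (adjusted p = 2.18e-08); HT and OCI-LY19 lay between them and overlapped. H2AC6 and H2BC8 were also highest in SUDHL5 at 0 h (adjusted p = 6.59e-08 and 6.89e-08). H2AX differed as well (0.0431), with 88.1, 83.7 and 61.6 FPKM in HT and 24.8, 19.7 and 61.5 FPKM in OCI-LY3. H4C3 (0.657), H2AC8 (0.695) and H2BC4 (0.597), which rose after treatment in OCI-LY19 or SUDHL5, did not pass at 0 h. Without 0 h replicate 2 of SUDHL5 the count of genes that differed was 10.

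In OCI-LY19R cells, set against OCI-LY19S, 4 of the 9 histone genes tested were higher, 44.4%, against 3.11% of all 12785 genes tested there, and none was lower, against 2.34%. The unadjusted p was below 0.05 for 5. Of the 4, H2AC6 and H4C9 reached the level required for testing only through the OCI-LY19R libraries, so that they had to be higher there; among the 7 others 2 were higher. Summed levels of the T and NK cell markers lay between 29.7 and 47.0 FPKM in OCI-LY19R, against 14.8 to 19.9 in OCI-LY19S, of the myeloid markers between 10.3 and 26.3 FPKM in OCI-LY19R, against 6.84 to 15.5 in OCI-LY19S, and of 7 stromal, epithelial or endothelial markers between 4.58 and 13.3 FPKM in OCI-LY19R, against 0.160 to 0.265 in OCI-LY19S. Their part in the calls was not tested. H2BC12 had 14.7, 35.4 and 34.0 FPKM in OCI-LY19R libraries, against 3.41, 5.50 and 6.29 FPKM in OCI-LY19S libraries, and was higher by 2.19 ± 0.35 on the log2 scale (SE, adjusted p = 0.0219). H4C9 had 2.57, 6.23 and 5.78 FPKM in OCI-LY19R, against 0.758, 0.677 and 1.13 FPKM in OCI-LY19S, and was higher by 1.60 ± 0.27 (adjusted p = 0.0258). H2BC12 and H4C9 both lay lowest in OCI-LY19R replicate 1, which still exceeded every OCI-LY19S library. H2AC6 had 1.77, 3.63 and 4.31 FPKM in OCI-LY19R, against 0.719, 0.350 and 0.532 FPKM in OCI-LY19S, and was higher by 1.42 ± 0.24 (adjusted p = 0.0271). H1-2 had 2.99, 5.07 and 5.46 FPKM in OCI-LY19R, against 1.79, 1.06 and 1.36 FPKM in OCI-LY19S, and was higher by 1.18 ± 0.21 (adjusted p = 0.0286), again without overlap. All 4 calls were lost without a filter on low genes (adjusted p 0.096 to 0.114) and without OCI-LY19S replicate 2 (0.0845 to 0.106); the count was also 0 without OCI-LY19R replicate 2 or 3 and 1 without OCI-LY19S replicate 3.

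The abundant histone genes H2AX and H1-10 were not called between the resistant and sensitive cells. H2AX had 83.3, 90.9 and 85.4 FPKM in OCI-LY19R, against 83.8, 100.4 and 110.1 FPKM in OCI-LY19S (-0.17 ± 0.12, adjusted p = 0.427). H1-10 had 97.5, 78.6 and 78.9 FPKM in OCI-LY19R, against 230.0, 88.3 and 84.6 FPKM in OCI-LY19S, where replicate 1 stood well above all other libraries (-0.50 ± 0.37, adjusted p = 0.464). H2AC20, whose promoter faces that of H2BC21, had 3.39, 1.69 and 2.47 FPKM in OCI-LY19R, against 4.08, 3.54 and 2.68 FPKM in OCI-LY19S, with overlap (adjusted p = 0.343). Of the genes that rose under short treatment of OCI-LY19, H1-2, H2AC6, H2BC12 and H4C9 were thus higher in OCI-LY19R. Others, such as H2BC8 and H4C3, were low in both cultures and did not reach the level required for testing. H2BC8 had 1.05, 0.913 and 0.932 FPKM in OCI-LY19R, against 0.568, 0.412 and 0.316 FPKM in OCI-LY19S. H4C3 had 0.591, 0.841 and 0.519 FPKM in OCI-LY19R, against 4.57, 0.721 and 0.689 FPKM in OCI-LY19S. In the authors' deposited table for these 2 cultures, 39 histone genes carried an adjusted p, of which 10 were below 0.05, all with a positive log2 change and 0 with a negative one. The 10 were H1-2, H2AC6, H2BC8 (1.18, adjusted p = 0.0348), H2BC11, H2BC12, H2BC21, H3C6, H3C10, H4C8 and H4C9. Each was also called higher in treated OCI-LY19, as were 51% of the tested histone genes and 34.5% of all genes tested. H3C6 was tested there only through the treated libraries. How often all genes with a positive change in the authors' deposited table rose in treated OCI-LY19 was not tested, so no excess can be read from this overlap. Of all 20731 genes with an adjusted p in the authors' deposited table, 5.15% were below 0.05 with a positive change and 5.35% with a negative one. The largest of these in the authors' deposited table were H2AC6 (2.53), H4C9 (2.37), H2BC12 (2.36) and H2BC11 (2.16). The header of the authors' deposited table does not say which culture is on top, but all 696 genes called here had the same sign there as OCI-LY19R over OCI-LY19S.

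The 49 tested genes differed in how well replicate libraries matched, and this went with the length of the gene model behind the FPKM value. With a split at 1000 bases chosen after the values were seen, the 16 longer models had a within-group SD of log2(FPKM + 1) between 0.09 and 0.53, with a median of 0.29. The 33 shorter models had 0.23 to 1.42, with a median of 0.69. H4C9 (0.19), H2BC8 (0.21) and H2AC6 (0.27) were steady between replicates on this scale, and H3C2 and H1-5 (1.42 each) were not. H3C6 (0.09) and H2BC6 (0.11) had smaller SDs, but averaged 0.42 and 0.63 FPKM over the 4 lines. At such levels the added 1 narrows the SD, so these values do not show steadiness. In OCI-LY19, 14 of the 16 longer models rose and 1 fell, against 11 and 0 of the 33 shorter ones. In SUDHL5, 7 of 16 longer and 4 of 33 shorter models rose. At the same FPKM a shorter model holds fewer reads.

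**Figure D3:**
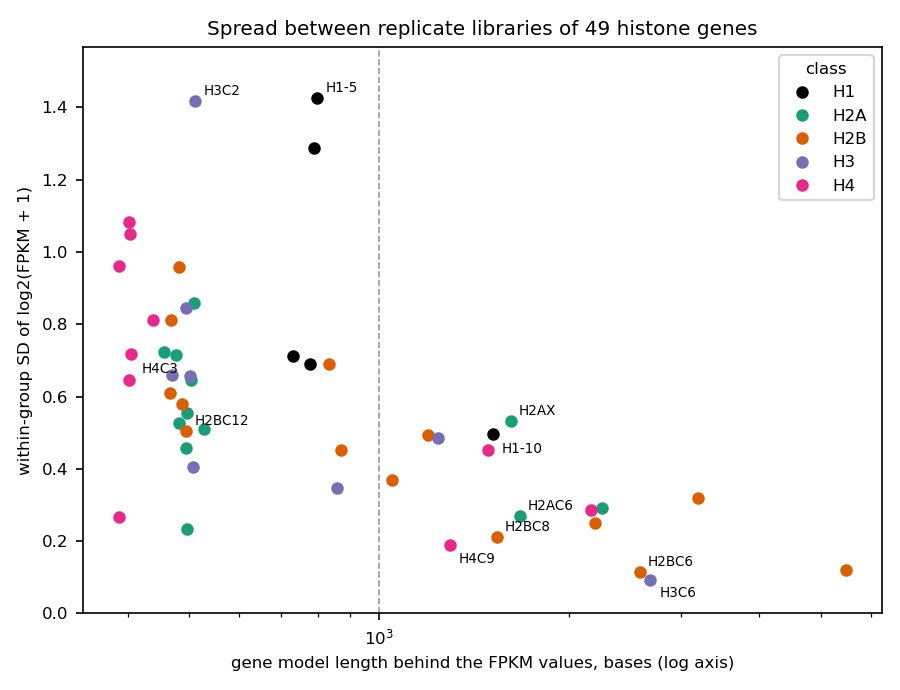
Within-group SD of log2(FPKM + 1) over the 8 groups of the 4 lines (vertical axis) against gene model length in bases (horizontal log axis) for the 49 tested histone genes, coloured by class; the dashed line marks 1000 bases. The 16 longer models lie at or below 0.53, and shorter models reach 1.42. The added 1 narrows the SD of genes at low FPKM.

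RN7SL1, the RNA of the signal recognition particle, carries no poly(A) tail in the cell, and its level is given here for each library. It had 752, 460.2 and 74.3 FPKM in treated OCI-LY19 libraries, against 540.1, 19.7 and 50.5 FPKM at 0 h, and 198, 216 and 229.9 FPKM in treated SUDHL5 libraries, against 61.3, 47.4 and 54.7 FPKM at 0 h. In treated OCI-LY3 libraries it had 293, 39.4 and 252 FPKM, against 48.7, 355 and 54.4 FPKM at 0 h, and in treated HT libraries 277, 305 and 76.8 FPKM, against 283, 322 and 341 FPKM at 0 h. Libraries of 1 group thus differed severalfold in RN7SL1 in OCI-LY3, HT and OCI-LY19, while in SUDHL5 all treated libraries were higher than all at 0 h. In OCI-LY19R it had 205, 60.3 and 56.1 FPKM, against 119, 52.5 and 61.6 FPKM in OCI-LY19S. Other listed RNAs without a tail did not spread as widely as RN7SL1 in every group. At 0 h their sum lay between 0.865 and 2.46 FPKM in OCI-LY19 and between 1.55 and 2.34 FPKM in OCI-LY3. In treated HT libraries, by contrast, that sum lay between 0.849 and 4.94 FPKM.

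The summed FPKM of the 43 shorter histone models, without H2BC12, also differed widely between replicate libraries. It was 239, 179 and 76.8 in treated OCI-LY19 libraries, against 97.2, 19.2 and 10.9 at 0 h. In OCI-LY3 it was 69.0, 5.56 and 71.1 in treated libraries, against 8.21, 87.3 and 16.9 at 0 h. The same replicate 2 libraries stood apart in both measures in OCI-LY3, low in the treated group and high at 0 h. In treated HT libraries the sum was 65.7, 52.8 and 4.79, against 60.0, 64.0 and 8.93 at 0 h, and replicate 3 at 0 h was low here although its RN7SL1 level was the highest of its group. The sum over the 23 longer models, without H2AX and H1-10, was 101, 71.3 and 65.0 in treated OCI-LY19 libraries, against 18.3, 8.54 and 6.96 at 0 h. In SUDHL5 the longer-model sum was 51.5, 48.2 and 53.5 in treated libraries, against 21.3, 22.4 and 20.5 at 0 h, and in OCI-LY19R 9.91, 17.4 and 18.9, against 5.38, 3.25 and 3.96 in OCI-LY19S.

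Of the 14 listed RNAs without a poly(A) tail, 7 were at 0 in every library and 3 were tested. RNU4ATAC, a spliceosomal RNA, rose in all 4 lines, and SNORD3A, a nucleolar RNA, rose in OCI-LY19 (1.62, adjusted p = 9.51e-06) and SUDHL5 (3.36, adjusted p = 1.88e-09). The list's sum, mostly RN7SL1, lay between 86.0 and 763 FPKM in treated OCI-LY19 libraries, against 20.6 to 542 at 0 h. In SUDHL5 it lay between 236 and 278 FPKM in treated libraries, against 52.2 to 63.9 at 0 h. Without RN7SL1 the sum lay between 9.80 and 11.7 FPKM in treated OCI-LY19 libraries, against 0.865 to 2.46 at 0 h. In SUDHL5 that remainder lay between 37.3 and 47.9 FPKM in treated libraries, against 2.65 to 4.74 at 0 h. In OCI-LY3 and HT the remainders of treated and 0 h libraries overlapped. With the RN7SL1 level as a covariate, an alternative chosen after the data were seen, the counts of higher histone genes in OCI-LY19 and SUDHL5 stayed within 1.5 times those given above. The part of RNA without a tail in the levels of single genes was not tested. When the library farthest from its group in RN7SL1 was left out of each of 7 groups, the count of higher genes became 41 in OCI-LY19, 17 in SUDHL5 and 27 in OCI-LY3. In OCI-LY3 the libraries kept there had 292.5 and 252.5 FPKM of RN7SL1 after treatment, against 48.7 and 54.4 at 0 h. The OCI-LY19 libraries kept were replicates 1 and 2 after treatment and replicates 2 and 3 at 0 h. There too, every treated library kept had severalfold more RN7SL1 than every library kept at 0 h. No SUDHL5 library was left out.

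**Figure D4:**
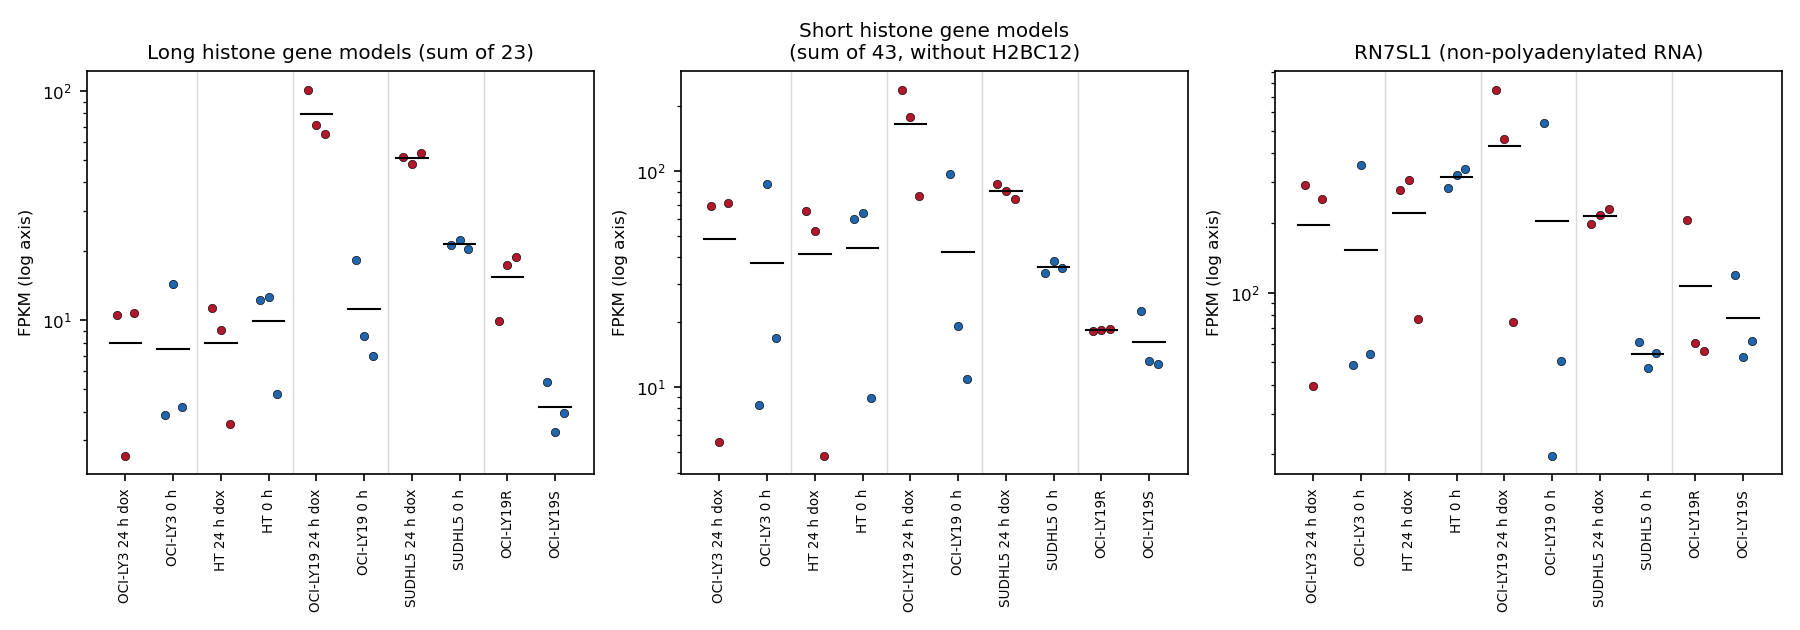
Summed FPKM of the 23 longer histone models without H2AX and H1-10, of the 43 shorter models without H2BC12, and the level of RN7SL1, on log axes, by library; red points are 24 h doxorubicin or OCI-LY19R, blue points 0 h or OCI-LY19S, and bars are means of 3. The treated OCI-LY19 libraries hold 65.0 to 101 FPKM in longer models, above all other libraries, while RN7SL1 overlaps between groups except in SUDHL5.

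The bases just before the transcription start are shown for H2AC6, H2BC8, H2BC12 and H2AX, since the first 3 rose together in OCI-LY19 while H2AX fell. They are the 250 bases upstream of the RefSeq gene start in GRCh38.p14, 5′ to 3′ on the gene's strand. Capitals mark 3 motifs on either strand, including where matches overlap. CCAAT is known as a binding site of the factor NF-Y and appears on the opposite strand as ATTGG. The TATA box was searched as TATAAA, and its opposite-strand form is TTTATA. The octamer was searched as ATTTGCAT and, for the opposite strand, as ATGCAAAT.
H2AC6 (chr6:26123922-26124171, plus strand): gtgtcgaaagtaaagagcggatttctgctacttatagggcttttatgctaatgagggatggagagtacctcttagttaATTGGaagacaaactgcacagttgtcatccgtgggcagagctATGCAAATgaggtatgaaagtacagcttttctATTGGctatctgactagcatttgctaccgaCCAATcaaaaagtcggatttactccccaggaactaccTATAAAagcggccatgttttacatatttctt
H2BC8 (chr6:26216689-26216938, minus strand): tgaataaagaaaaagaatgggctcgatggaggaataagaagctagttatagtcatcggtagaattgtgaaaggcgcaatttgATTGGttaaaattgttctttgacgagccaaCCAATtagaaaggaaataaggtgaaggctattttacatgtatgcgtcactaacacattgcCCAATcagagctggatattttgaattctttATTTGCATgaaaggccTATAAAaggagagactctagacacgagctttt
H2BC12 (chr6:27146859-27147108, minus strand): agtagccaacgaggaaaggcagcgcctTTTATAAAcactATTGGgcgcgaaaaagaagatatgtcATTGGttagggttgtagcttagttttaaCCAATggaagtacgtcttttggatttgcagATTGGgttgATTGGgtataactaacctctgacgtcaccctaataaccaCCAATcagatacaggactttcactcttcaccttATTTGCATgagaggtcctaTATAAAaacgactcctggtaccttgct
H2AX (chr11:119095466-119095715, minus strand): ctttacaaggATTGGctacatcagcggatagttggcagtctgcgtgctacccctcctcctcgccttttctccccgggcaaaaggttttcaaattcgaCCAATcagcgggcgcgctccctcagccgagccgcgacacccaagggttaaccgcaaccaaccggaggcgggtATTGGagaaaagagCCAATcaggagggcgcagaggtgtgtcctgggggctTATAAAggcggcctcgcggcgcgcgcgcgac
All 4 windows held CCAAT and TATAAA letters, and the octamer, the site read by the factors POU2F1 and POU2F2, stood in those of H2AC6, H2BC8 and H2BC12 but not in that of H2AX.

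Over the 65 histone genes with a RefSeq window of 300 bases (250 before to 50 after the start), CCAAT letters on either strand were found in 84.6%, against 35.7% of all 27305 RefSeq windows. TATAAA letters were found in 66.2%, against 11.95%, and the octamer in 40.0%, against 1.8%. The octamer stood in 82.4% of H2B and 68.8% of H2A windows. It stood in 9.1% of H3 windows, where the match was H3C4, whose window holds the same bases as that of H2AC7. No H1 or H4 window held it. H4C8 and H4C9, which rose in OCI-LY19 and SUDHL5, thus had no octamer letters in their windows. A match is a run of letters and not a measured binding site.

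Several histone genes lie head to head, and 13 such pairs of annotated genes lay within the set. H2AC7 and H3C4 were both paired with H2BC7 across the same 223 bases, and H3C7 and H2BC9 lay 979 bases apart. H2BC8 and H2AC8, whose starts are 233 bases apart, changed by 2.74 and 2.77 on the log2 scale in OCI-LY19. H2BC21 and H2AC20, 236 bases apart, changed by 2.15 and -0.14, and only H2BC21 was called. H2BC4 and H2AC6, 246 bases apart, changed by 1.16 and 2.86, and only H2AC6 was called. H2BC12 and H2AC12, 248 bases apart, changed by 2.03 and 1.20, and only H2BC12 was called. Genes of such a family can also share reads: H3C14 with H3C15, H2AC18 with H2AC19, H4C14 with H4C15 and H4C11 with H4C12 have near-identical transcripts. Of the 75-base windows of H2BC12, 50.5% occur in other genes, as do 70.3% in H3C13, 60.7% in H3C12 and 60.1% in H2AC13. The split of reads among such genes is uncertain. H3C13, H3C12 and H2AC13 were called higher in OCI-LY19, and H3C12 in SUDHL5 too, so this limit holds for those calls.

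Genes for making and handling histone mRNA were called lower more often than higher in OCI-LY19 and SUDHL5. Of 29 tested genes of histone transcription and mRNA processing, 4 rose and 19 fell in OCI-LY19, 3 and 13 in SUDHL5, 8 and 9 in OCI-LY3, and 6 and 4 in HT. For this and the other lists, the shares of all genes tested that rose and fell were 34.5% and 23.7% in OCI-LY19, 18.6% and 19.9% in SUDHL5, 40.4% and 14.3% in OCI-LY3, and 22.9% and 9.41% in HT. SLBP, which binds the stem-loop, averaged 34.3 ± 4.5 FPKM in treated OCI-LY19 cells, against 88.1 ± 7.6 at 0 h (SD, n = 3 each), and fell by 1.34 on the log2 scale (adjusted p = 8.8e-11). In SUDHL5 it averaged 49.1 ± 3.0 FPKM in treated cells, against 91.9 ± 3.2 at 0 h, and fell by 0.89 (adjusted p = 6.88e-08). It was not called in OCI-LY3 (adjusted p = 0.493) or HT (0.925). NPAT, the coactivator of histone gene transcription, averaged 6.02 FPKM in treated OCI-LY19 cells, against 6.86 at 0 h, and was not called in any of the 4 lines or in OCI-LY19R. Between OCI-LY19R and OCI-LY19S the list held 0 higher genes and 1 lower, the octamer coactivator gene POU2AF1 (-1.03, adjusted p = 0.0318).

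Replication-independent histone variants, which are made from polyadenylated mRNA, numbered 9 tested genes, H1-10 among them. In OCI-LY19 0 rose and 5 fell, in SUDHL5 2 and 4, in OCI-LY3 5 and 1, and in HT 1 and 1. H2AZ1, which encodes the variant H2A.Z, averaged 90.0 ± 14.3 FPKM in treated OCI-LY19 cells, against 267 ± 21 at 0 h (SD, n = 3 each; -1.57, adjusted p = 1.25e-10). In SUDHL5 it averaged 190.4 ± 12.6 FPKM in treated cells, against 304 ± 5 at 0 h, a fall of 0.68 (-0.68, adjusted p = 2.08e-05). CENPA, the H3 variant of centromeres, fell in both lines (-1.87, adjusted p = 1.63e-07 in OCI-LY19 and -0.92, adjusted p = 0.00106 in SUDHL5). H2AJ, an H2A variant, rose in OCI-LY3 (0.83, adjusted p = 1.91e-06) and HT (0.73, adjusted p = 4.57e-05). None of the 8 tested variants was called between OCI-LY19R and OCI-LY19S.

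Other lists moved with these. Of 18 histone chaperone genes, 2 rose and 13 fell in OCI-LY19, 1 and 9 in SUDHL5, 7 and 3 in OCI-LY3, and 5 and 2 in HT; the centromere chaperone gene HJURP and the FACT subunit gene SSRP1 fell in both OCI-LY19 (-1.32 and -1.18) and SUDHL5 (-0.80 and -0.73). Of 26 S phase genes, 1 rose and 22 fell in OCI-LY19, 2 and 17 in SUDHL5, 17 and 2 in OCI-LY3, and 8 and 3 in HT. The helicase gene MCM6 and the cyclin gene CCNA2 fell in OCI-LY19 (-2.07 and -1.71) and in SUDHL5 (-0.91 and -1.23). Of 8 genes of the p53 response, all rose in OCI-LY19 and SUDHL5, 5 in OCI-LY3 and 3 in HT, and the cell-cycle inhibitor gene CDKN1A averaged 524 ± 29 FPKM in treated OCI-LY19 cells, against 23.8 ± 3.0 at 0 h (SD, n = 3 each). Of 13 genes that signal around H2AX, 2 rose and 8 fell in OCI-LY19, 1 and 6 in SUDHL5, 5 and 3 in OCI-LY3, and 3 and 2 in HT; PPM1D, the phosphatase that removes the phosphate from H2AX, rose in OCI-LY19 (1.72, adjusted p = 1.63e-14) and SUDHL5 (1.59, adjusted p = 2.49e-13). Between OCI-LY19R and OCI-LY19S these lists held 0 calls for chaperone and S phase genes, 1 lower for the H2AX list and 2 higher of 7 tested for the p53 list.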

How the data were processed

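Poly(A)-selected RNA of 30 libraries was made into strand-marked libraries, per the labels' protocols. The authors deposited 2 tables of FPKM values, normalized separately, so tests stay within a table; for OCI-LY19R against OCI-LY19S they also deposited a mean scaled signal, log2 fold changes, their standard error and a test statistic (a score), and p-values. Trimmomatic, STAR, featureCounts and hg38 are named without versions in the submitters' processing notes; which annotation release and strand mode the counting used is not given in the sources used here. In 4 libraries the column name marks a repeat ("2nd"), whose meaning is not stated.

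Whole reads were recovered from FPKM with gene lengths from GENCODE 29 for 25442 genes and solved from the value steps for 19156; 100.0% of values came out whole within 0.01 read. Log2(FPKM + 1) was tested with limma 3.58.1 (lmFit, eBayes with trend) in R 4.3.3, two-sided, over genes that reached 1 FPKM in 3 or more libraries, with Benjamini-Hochberg adjustment over all of them and 16 residual degrees of freedom in the 4 lines or 4 in OCI-LY19R and OCI-LY19S. A fold change on this scale understates changes of low genes. Tables and figures were made with Python 3.11.15, pandas 2.3.3 and matplotlib 3.10.9. On simulated OCI-LY19 data with 15441 genes, 30.9% of 1.5-fold, 84.1% of 2-fold and 93.4% of 4-fold changes were recovered and 0.02% of unchanged genes were called. The simulation gave all genes the same fixed dispersion, with no difference shared by many genes between replicate libraries. These rates may therefore not hold for the histone genes, whose replicates differed widely in part.

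The histone genes, the other gene lists and the tests were chosen with earlier results of these data known. Named were H2AX and H1-10, the 5 genes of highest mean FPKM per table, and per comparison up to 6 higher and 6 lower called genes of largest change with a mean of at least 5 FPKM in the higher group; H4C9 and H2BC6 were added after their values were seen, and 1 further histone gene and 1 B cell marker are not reported here. Other lists are given by counts and up to 4 largest called changes. Replicate numbers from the titles paired the HT libraries, whose same-number deviations from the group mean correlated at 0.17, 0.32 and 0.35; the other groups did not meet this measure (above 0.1 for every number). Same-number libraries also share a column-name prefix, whose meaning is not stated, in OCI-LY3 and HT and for 2 of 3 numbers in OCI-LY19. Alternatives were another pseudocount, other filters and scalings, a replicate block, the line alone, the library-name ending as a covariate and leaving out each library, and, chosen after seeing the data, voom on the recovered reads, RN7SL1 as a covariate and leaving out the library farthest in RN7SL1.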

Additional observations from a re-analysis of the deposited data

Results flagged for a closer look

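The change after doxorubicin differed among OCI-LY3, HT, OCI-LY19 and SUDHL5 for 9 of the named histone genes, by limma's F test of the interaction between line and treatment across all 17645 genes. The adjusted p was 1.8e-09 for H2BC8, 5.2e-08 for H4C9, 6.72e-08 for H2AC6, 1.32e-06 for H2BC21 and 5.66e-05 for H2BC12. It was 0.000424 for H4C3, 0.000553 for H2BC6, 0.00177 for H1-10 and 0.002 for H2BC5. H2BC6 reached the level required for testing only through the treated OCI-LY19 libraries, so that it had to differ. For H2BC8 the log2 changes were -0.34, -0.22, 2.74 and 1.76 in OCI-LY3, HT, OCI-LY19 and SUDHL5. For H1-10 they were 1.54, 0.54, -0.74 and -0.71, and for H2BC12 -0.88, -1.33, 2.03 and 0.82. All groups hold 3 libraries, too few for a check of single libraries far from the others. Library differences in RN7SL1 move with part of these changes, as given beside the histone sums, and their part was not tested.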

How the results depend on the processing

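Among the single-gene changes of the named histone genes, none turned its direction while called under any alternative; 551 values kept their side of the threshold, 52 lost their call and 11 gained one. Calls of H2BC8, H2BC21, H4C3, H4C9, H2AC6 and H2BC12 in OCI-LY19, and of H2BC8, H2BC21, H4C3 and H4C9 in SUDHL5, held under every alternative in which they were tested. Counts of called histone genes moved more. Higher genes in OCI-LY3 (2) numbered 1 with a 5 FPKM filter, median-of-ratios scaling, quantile normalization or the line alone, and 27 with the libraries apart in RN7SL1 left out. Lower genes there (1) numbered 2 with the 5 FPKM filter, 4 with either scaling, 3 with voom or the RN7SL1 covariate, and 0 with those libraries left out. The 1 higher gene in HT, H2BC6, became 0 without a filter, with the 5 FPKM filter, with either scaling, the line alone, voom or those libraries left out, and the 2 lower became 1 on the line alone; H2BC6 was not tested with the 5 FPKM filter, on the line alone or with those libraries left out. In OCI-LY19 the 25 higher became 10 with the 5 FPKM filter, where fewer genes are tested, and 41 with those libraries left out, and the 1 lower became 2 with voom. In SUDHL5 the 11 higher became 7 with pseudocount 0.1 or TPM and 17 with those libraries left out, and the 0 lower became 4 on the line alone and 6 with the RN7SL1 covariate. In OCI-LY19R the 4 higher became 0 without a filter and 1 with the 5 FPKM filter. The 19 genes whose response differed among lines became 11 with that filter and 41 with those libraries left out, and the 16 that differed at 0 h became 9 with that filter, 28 with the RN7SL1 covariate and 29 with those libraries left out. With those libraries left out, every treated library kept in OCI-LY3 and OCI-LY19 had more RN7SL1 than every library kept at 0 h. Except for the smaller number of genes tested under the filter, the cause of these shifts in count was not tested.

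The replicate block gave 1 higher and 3 lower histone genes in HT, where numbers pair the libraries, and no named call there was lost. Elsewhere the correlations gave no pairing: with the replicate block, lower genes numbered 3 in OCI-LY3, 2 in OCI-LY19 and 2 in SUDHL5, and higher genes in OCI-LY19R numbered 2. No group outside HT had every library correlate best with its own number. Leaving out each library in turn gave, for OCI-LY3, between 1 and 2 higher and between 1 and 2 lower genes. The ranges were 0 to 1 higher and 0 to 3 lower for HT, 17 to 43 higher and 1 to 2 lower for OCI-LY19, 9 to 12 higher and 0 to 0 lower for SUDHL5, and 0 to 4 higher and 0 to 0 lower for OCI-LY19R. It gave 15 to 22 genes differing in response and 10 to 16 at 0 h. Over all genes, upward calls were 73.9% of calls in OCI-LY3, 70.9% in HT, 59.3% in OCI-LY19, 48.4% in SUDHL5 and 57.0% in OCI-LY19R, and 51.5%, 55.9%, 51.9%, 51.8% and 44.9% with median-of-ratios scaling, which moved the median of all genes in OCI-LY3 to 0.01 from 0.16. Depth limits the low members: the named H4C3 rests on 2 reads in its lowest library and H2BC8 on 6.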
